A study of Mus musculus with 20 samples.

Results

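Antisense RNA genes are transcribed from the strand opposite to another gene, and 187 of them were followed here across SIMS cells, a line from mouse salivary gland, with the Zcchc8 gene intact or knocked out. They were chosen as the genes of biotype antisense in GENCODE M21 whose mean over all 20 libraries was at least 20 counts. They make up 187 of 2957 antisense genes and of 55471 genes in the count table. The values that chose them are these mean counts, and 12 of the 20 libraries are Zcchc8 knockouts. A gene that is low in the controls could therefore enter through the knockouts. The members nearest the threshold were Zfp335os, at a mean of 20.05 counts, and Gm47079, at 20.1, while 1700113A16Rik, at 19.95, and Gm47794, at 19.9, stayed just outside.

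The libraries were made from total RNA with a strand-keeping kit and form 5 groups of 4: SIMS wild type, SIMS with a Btbd7 knockout (KO) as the stated negative control, and 3 SIMS Zcchc8 KO clones, numbered 1, 2 and 3. Both genes were disrupted with CRISPR/Cas9, and all groups were grown in the same serum-containing medium. Each edited group is 1 cell line, the labels give no clone number for the Btbd7 KO, and nothing says that the 4 libraries of a group came from separate cultures. The p-values below thus measure the spread between these libraries, which may be technical, and they do not measure the spread between independently edited lines.

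Most antisense RNAs are non-coding, kept in the nucleus and short-lived. ZCCHC8 holds together NEXT, the nuclear exosome targeting complex. NEXT binds short, often unspliced nuclear transcripts, and the RNA exosome then degrades them from the 3' end. Substrates known from other cells include the transcripts that start upstream of active promoters and run in the opposite direction. In bulk RNA, fewer cells with a transcript and less RNA per cell cannot be told apart.

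Depth was 6833258 to 17771804 counts per library, and at most 7683444 in the libraries of clone 1. Wild-type replicate 1 stood apart, with 145 of the 187 antisense genes detected. Some counts and single genes are also given without it. The summaries by position and structure and the changes of Gm4610 and Sp3os are not. Zcchc8 RNA was at 65.1 CPM, counts scaled to a common library size, in wild type, 60.3 in clone 1, 23.3 in clone 2 and 54.6 in clone 3, so its level did not set clone 1 apart. Btbd7 was at 202 CPM in wild type and 99.2 in the Btbd7 KO. All 8 epithelial markers were present, with the keratin Krt8 at 468 to 951 CPM, whereas the leukocyte marker Ptprc stayed at or below 0.684 CPM and the endothelial marker Pecam1 at or below 1.02. Some markers moved with the groups, and their part in the results was not tested. Krt7 averaged 1136 CPM in wild type, 1088 in the Btbd7 KO and 733, 801 and 734 in clones 1, 2 and 3. Krt18 averaged 970 and 879 CPM in wild type and Btbd7 KO and 729, 700 and 684 in the clones. Krt8 averaged 749 and 847 CPM in the controls and 532, 698 and 518 in the clones. Not all epithelial markers were lower in this way. Epcam averaged 358 and 314 CPM in wild type and Btbd7 KO and 380, 358 and 379 in the clones. Cdh1 averaged 398 and 413 CPM in the controls and 421, 348 and 454 in the clones. The macrophage gene Cd68 averaged 5.55 and 5.89 CPM in wild type and Btbd7 KO and 11.2, 9.31 and 5.54 in the clones. The fibroblast collagen Col1a1 averaged 11.4 and 18 CPM in the controls and 10.7, 24.3 and 22.9 in the clones. Col3a1, from the same list, was lower in the clones, with 3.15 and 7.31 CPM in the controls and 0.165, 0.0688 and 0.894 in the clones. The 8 epithelial markers summed to 3604 to 5231 CPM per wild-type library, 4438 to 4579 in the Btbd7 KO and 3220 to 4113 in the clones, and the 5 fibroblast markers to 11.4 to 18.5, 22.5 to 35.2 and 10.2 to 28.2 CPM.

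Of the 187 genes, 171 overlapped a gene on the other strand and 16 did not, 43 overlapped several, and 2 shared a sense gene. The overlapping partner is called the sense gene here, with a protein-coding partner taken first and then the largest overlap. In 74 pairs the genes were head-to-head, meaning that each start lies inside the other gene, and in 40 they were tail-to-tail, with only the ends overlapping. A further 43 antisense genes lay inside the sense gene, and 14 enclosed it. A set of 26 also overlapped a gene on their own strand, from which their reads cannot be told apart. How strand was used in the counting is not given in the sources used here, so without that statement reads of an antisense gene and of its sense gene cannot be told apart where their exons overlap, which they do in 144 pairs.

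The transcripts themselves can be looked at where they start and where they end. The first sequence is the promoter window of 2900060B14Rik, the single-exon gene with a mean of at least 50 counts that rose most, at chr1:118459216-118459515 on the minus strand (RefSeq, GRCm38.p6, from 250 bases before to 50 after the start), with each CG dinucleotide in capitals.
2900060B14Rik promoter: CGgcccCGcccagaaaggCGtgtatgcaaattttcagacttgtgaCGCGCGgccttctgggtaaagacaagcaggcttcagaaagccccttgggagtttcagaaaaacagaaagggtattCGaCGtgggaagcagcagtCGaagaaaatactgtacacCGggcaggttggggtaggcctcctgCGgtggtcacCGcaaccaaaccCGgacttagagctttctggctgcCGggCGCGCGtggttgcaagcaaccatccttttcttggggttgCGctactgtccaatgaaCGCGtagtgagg
This window lies in the body of Clasp1 and holds 20 CG dinucleotides, against a median of 7 over 27025 RefSeq promoter windows of the same 300 bases and 18.5 over the 42 antisense genes whose RefSeq start lies within 50 bases of the GENCODE start.

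The other sequences are the last 50 bases of annotated transcripts (GENCODE M21, GRCm38), shown because the hexamer AATAAA, the canonical polyadenylation signal, is in some and not in others. Capitals mark that hexamer. The first 3 end at chr11:3639785-3639834 on the minus strand, chr15:101405785-101405834 on the plus strand and chr15:37044051-37044100 on the plus strand. The last 3 end at chr3:90292301-90292350 on the minus strand, chr4:45015357-45015406 on the plus strand and chr1:171500568-171500617 on the minus strand.
Tug1: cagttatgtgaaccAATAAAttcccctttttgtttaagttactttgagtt
Gm35853: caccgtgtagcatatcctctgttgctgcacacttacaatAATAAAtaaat
Gm26766: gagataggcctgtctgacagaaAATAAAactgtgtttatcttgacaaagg
4930537H20Rik: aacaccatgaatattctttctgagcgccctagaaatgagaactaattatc
1700055D18Rik: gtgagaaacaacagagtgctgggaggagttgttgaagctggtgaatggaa
B930036N10Rik: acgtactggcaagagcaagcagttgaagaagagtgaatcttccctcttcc
In the clones Tug1 did not pass the test, Gm35853 fell, and the other 4 rose, so a hexamer stood at the end of a gene that rose and of genes that did not. Over all members AATAAA was in the last 50 bases on the transcript strand of 81 of 187 (43.3%), of 41.9% of those called higher and of 44.9% of those not called. It was in 35.9% of all annotated genes, in 56.8% of protein-coding genes and in 33.1% of the antisense genes that are no members.

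In the Zcchc8 KO clones 136 of the 187 antisense genes rose and 2 fell against wild type (edgeR quasi-likelihood test, mean of the 3 clones, Benjamini-Hochberg adjusted p under 0.05). Over all 15297 genes tested, 16.2% were called higher and 19.9% lower. The median log2 fold change of the members was 1.5 and that of all genes -0.01. The estimate was above 0 for 173 of the 187. Of the members called higher it was above 1 for 116, beside 8.42% of all genes, above 2 for 68 and above 3 for 29. At 106 members all 12 clone libraries lay above all 4 wild-type libraries, and at 1 all lay below, beside 6.01% and 4.12% of all genes tested. Because the choice of members used the clone libraries, these counts describe the chosen genes and do not support a change. Without wild-type replicate 1 there were 146 members higher, beside 17.5% of all genes, and 2 lower, beside 18.7%. With the 3 clones and the 2 control lines as replicates in place of libraries, a setting added after seeing the data, 106 were higher and 0 lower (edgeR), beside 5.82% and 1.11%.

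A choice by libraries outside the comparison gave fewer and smaller increases. Among 107 antisense genes with a mean of at least 20 counts in the 4 Btbd7 KO libraries, 59 (55.1%) were higher and 2 lower, with a median log2 fold change of 0.77. Split by their Btbd7 KO level, the lowest 36 had a median of 0.75, the middle 35 of 0.89 and the highest 36 of 0.65. The 86 members under 20 counts in the Btbd7 KO had a median of 2.37 with 77 called higher.

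Summed over all 187, antisense RNA made up 968 to 1215 CPM in the wild-type libraries and 983 to 1038 in those of the Btbd7 KO. It reached 2071 to 2129 CPM in clone 1, 1842 to 1933 in clone 2 and 1809 to 1932 in clone 3, so no clone library overlapped a control library. Without Tug1 and Brip1os, the pair with the highest levels, the ranges were 592 to 714 CPM in wild type, 532 to 585 in the Btbd7 KO, 1610 to 1699 in clone 1, 1382 to 1435 in clone 2 and 1400 to 1494 in clone 3. All 187 members were detected in each clone library, while 42 had no count in wild-type replicate 1 and 7 had none in at least 1 of the other wild-type libraries. Because the choice of members used the clone libraries, these sums and detections describe the chosen genes and do not support a change. The sums were not taken for the genes chosen on the Btbd7 KO libraries.

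Other kinds of gene were taken at the same mean of at least 20 counts, which the clone libraries entered as well. Of these, 46 of 55 bidirectional promoter RNAs (83.6%), 109 of 212 lincRNAs (51.4%) and 75 of 160 processed transcripts (46.9%) were called higher. So were 127 of 588 unconfirmed transcripts of biotype TEC (21.6%) and 1212 of 10574 protein-coding genes (11.5%). The difference between these kinds was not tested.

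**Figure D1:**
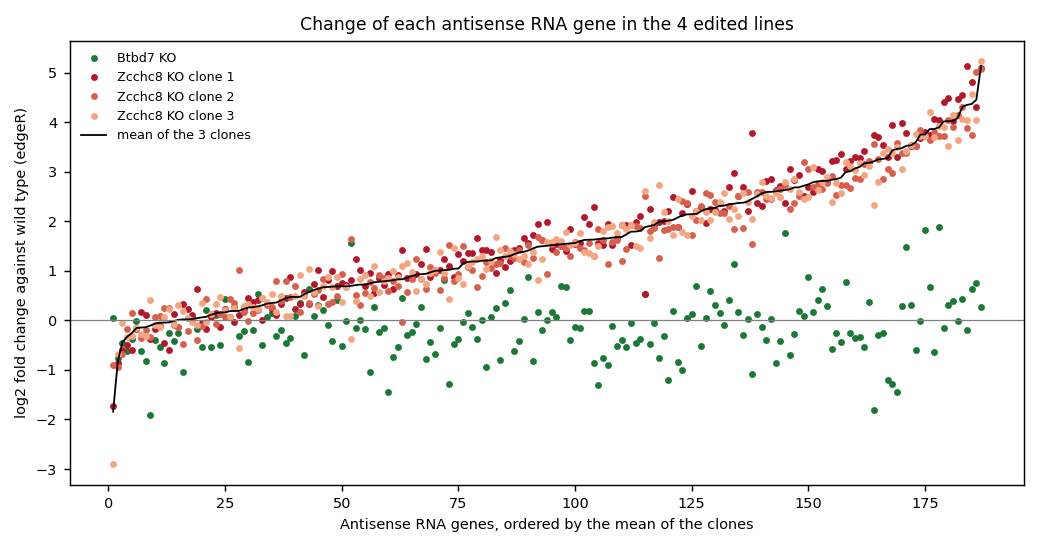
Log2 fold change against wild type (edgeR, vertical axis) of each of the 187 antisense RNA genes, ordered along the horizontal axis by the mean of the 3 Zcchc8 KO clones (line), with points for clones 1, 2 and 3 and for the Btbd7 KO. The clone points follow the line, from -1.84 at Gm4610 to 5.13 at 4930537H20Rik, while the Btbd7 KO points have a median of -0.15.

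Tug1 and Brip1os, the pair with the highest levels, moved little. Tug1 (ENSMUSG00000056579.18, chromosome 11, 3639785 to 3649673, minus strand, GRCm38) is a long-known spliced non-coding RNA that starts 482 bases from the start of Morc2a, a chromatin ATPase gene. It was at 346, 233, 272 and 274 CPM in wild type, at 297, 281, 283 and 303 in the Btbd7 KO, at 276, 300, 326 and 317 in clone 1, at 287, 285, 262 and 293 in clone 2 and at 263, 272, 281 and 281 in clone 3. Every group overlapped wild type, whose replicate 1 was the highest and replicate 2 the lowest of all 20 libraries. On the log2 scale the change was 0.03 (SE 0.06, edgeR adjusted p = 0.787). Without wild-type replicate 1 it was 0.16 (edgeR adjusted p = 0.0103), and without replicate 2 it was -0.05.

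Brip1os (ENSMUSG00000085208.3, chromosome 11, 86201370 to 86304443, plus strand) encloses Ints2, a subunit gene of the Integrator complex. It was at 155, 143, 140 and 161 CPM in wild type, at 157, 162, 168 and 141 in the Btbd7 KO, at 154, 155, 164 and 152 in clone 1, at 185, 207, 199 and 212 in clone 2 and at 147, 172, 156 and 153 in clone 3. Only clone 2 had all its libraries above wild type. Over the clones it rose by 0.19 (log2, SE 0.05, edgeR adjusted p = 0.00844), made up of 0.06, 0.43 and 0.07 for clones 1, 2 and 3.

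6330403L08Rik (ENSMUSG00000075585.3, chromosome 5, 138995056 to 139000577, plus strand) is a single-exon gene head-to-head with Pdgfa, which encodes a chain of platelet-derived growth factor. Its level was 36.0, 37.3, 37.7 and 29.2 CPM in wild type, 29.1, 30.9, 29.7 and 28.5 in the Btbd7 KO, 61.6, 63.9, 63.7 and 62.8 in clone 1, 59.3, 72.7, 63.9 and 66.8 in clone 2 and 50.6, 48.7, 56.5 and 53.4 in clone 3. All clone libraries were above all control libraries. The fitted log2 change came to 0.78 (SE 0.07, edgeR adjusted p = 4.39e-09), and Pdgfa itself was at -0.12 (edgeR adjusted p = 0.286).

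2810402E24Rik (ENSMUSG00000099966.1, chromosome 14, 20641009 to 20644048, plus strand), also with a single exon, starts 54 bases inside Usp54, a gene of the ubiquitin-specific protease family. It stood at 13.7, 17.2, 16.9 and 18.2 CPM in wild type, at 20.3, 15.9, 19.7 and 18 in the Btbd7 KO, at 41.4, 47.9, 44.7 and 44.1 in clone 1, at 50, 51.9, 46.1 and 45.5 in clone 2 and at 44.3, 41.8, 59.0 and 52.1 in clone 3. The clones overlapped each other and none overlapped a control. The rise was 1.52 on the log2 scale (SE 0.10, edgeR adjusted p = 8.8e-12), while Usp54 fell by 0.19 (edgeR adjusted p = 0.0248). That fall came from clone 2, with -0.04, -0.57 and 0.04 in clones 1, 2 and 3 (edgeR adjusted p = 0.765, 5.97e-06 and 0.758).

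The 8 largest increases among members called in each clone with a mean of at least 50 counts were in genes at 3.32 CPM or less in every wild-type library. 2900060B14Rik (ENSMUSG00000107722.1, chromosome 1, 118458652 to 118459267, minus strand), whose promoter is printed above, lies inside Clasp1, a microtubule plus-end protein gene, and touches none of its exons. It was at 0, 1.5, 1.05 and 0.528 CPM in wild type and at 0.723, 0.730, 0.372 and 0.760 in the Btbd7 KO. In the clones it reached 32.2, 28.2, 28.1 and 20.9 CPM in clone 1, 8.91, 13.7, 11.1 and 12 in clone 2 and 9.89, 11.9, 13.4 and 16.4 in clone 3. Clone 1 lay above the other two clones, and no clone library overlapped a control. Clasp1, which shares the locus but no exon, was at -0.08 (edgeR adjusted p = 0.285) against 4.35 for 2900060B14Rik (SE 0.33, edgeR adjusted p = 1.9e-10). Without wild-type replicate 2 the value was 4.95.

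0610040B10Rik (ENSMUSG00000089889.2, chromosome 5, 143329247 to 143332704, plus strand) overlaps the start of Zdhhc4, a palmitoyltransferase family gene, by 10 bases. Its level was 3.32, 1.33, 2.54 and 1.82 CPM in wild type, 2.05, 1.39, 1.49 and 1.94 in the Btbd7 KO, 25.3, 21.7, 19.5 and 21.4 in clone 1, 15.4, 15.4, 16.4 and 18 in clone 2 and 19.7, 15.1, 19.8 and 18.6 in clone 3. Control and clone libraries were far apart, with the lowest clone value at 15.1 CPM. The clones differed from wild type by 3.07 on the log2 scale (SE 0.18, edgeR adjusted p = 1.77e-12), beside 0.02 for Zdhhc4 (edgeR adjusted p = 0.894).

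1700055D18Rik (ENSMUSG00000070997.4, chromosome 4, 45011687 to 45015406, plus strand) shares 726 bases with Zbtb5, a zinc finger gene, from its own start. It had 0, 0.984, 1.87 and 0.352 CPM in wild type, 0.663, 0.863, 0.372 and 0.591 in the Btbd7 KO, 11.9, 8.53, 8.40 and 7.64 in clone 1, 7.54, 4.70, 5.88 and 4.90 in clone 2 and 8.90, 6.15, 9.05 and 8.59 in clone 3. All clone values were above all control values. It rose by 3.26 (log2, SE 0.41, edgeR adjusted p = 7.6e-07), and Zbtb5 was at 0.05 (edgeR adjusted p = 0.797). Leaving out wild-type replicate 3 gave 4.02 for 1700055D18Rik.

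Gm26670 (ENSMUSG00000097416.3, chromosome 1, 191986832 to 191990138, minus strand) is tail-to-tail with Rd3, a retinal gene that had no count in wild type. The antisense gene was at 1.04, 0.579, 0.673 and 0.704 CPM in wild type, at 1.69, 0.863, 0.372 and 0.507 in the Btbd7 KO, at 8.33, 9.88, 8.11 and 8.41 in clone 1, at 11.4, 9.97, 6.90 and 7.18 in clone 2 and at 9.75, 8.41, 9.69 and 7.22 in clone 3. The 3 clones overlapped and lay apart from both controls. Their log2 fold changes were 3.52, 3.54 and 3.53, with a mean of 3.53 (SE 0.28, edgeR adjusted p = 5.44e-10).

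Gm4419 (ENSMUSG00000097055.2, chromosome 12, 21417323 to 21421064, plus strand) is head-to-head with Ywhaq, a 14-3-3 protein gene, from a start 314 bases away. It had 1.95, 0.810, 2.99 and 1.58 CPM in wild type, 2.11, 2.59, 1.61 and 2.28 in the Btbd7 KO, 10.7, 14.9, 12.4 and 11.7 in clone 1, 11.2, 12.4, 14.0 and 11.5 in clone 2 and 14.2, 9.67, 11.6 and 17.5 in clone 3. Clones and controls did not overlap. The increase was 2.81 (log2, SE 0.23, edgeR adjusted p = 1.03e-09), and Ywhaq was at -0.14 (edgeR adjusted p = 0.0711).

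Gm13523 (ENSMUSG00000087496.1, chromosome 2, 32873755 to 32876001, minus strand) overlaps no gene on the other strand. It was at 1.5, 1.68, 0.897 and 1.29 CPM in wild type, at 1.02, 1.13, 1.24 and 0.591 in the Btbd7 KO, at 11.1, 15, 12.3 and 16.9 in clone 1, at 10.6, 7.12, 8.21 and 10.2 in clone 2 and at 7.33, 7.66, 8.54 and 8.79 in clone 3. Every clone library exceeded every control library, and clone 1 exceeded clones 2 and 3. On the log2 scale the change was 2.88 (SE 0.21, edgeR adjusted p = 1.08e-10).

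Gm20633 and Gm30275 complete the 8 members with the largest increases among those called in each clone at a mean of at least 50 counts. Gm20633 (chromosome 3, 96243550 to 96246380, minus strand) encloses Hist2h2aa1, a histone H2A gene with no counts in wild type or in the clones. The histone genes there have near-identical copies, so how reads were shared between them is uncertain. Gm20633 ran from 0.521 to 3.12 CPM in wild type and from 10.8 to 20.4 in the clones (log2 fold change 3.01, SE 0.29, edgeR adjusted p = 1.3e-08). Gm30275 (chromosome 14, 54067579 to 54125395, minus strand) spans Trdv4, a variable segment of the T cell receptor, and ran from 0.352 to 2.41 CPM in wild type and from 6.77 to 12 in the clones (log2 fold change 2.81, SE 0.30, edgeR adjusted p = 7.35e-08). Without wild-type replicate 1 the change of Gm30275 was 3.42.

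**Figure D2:**
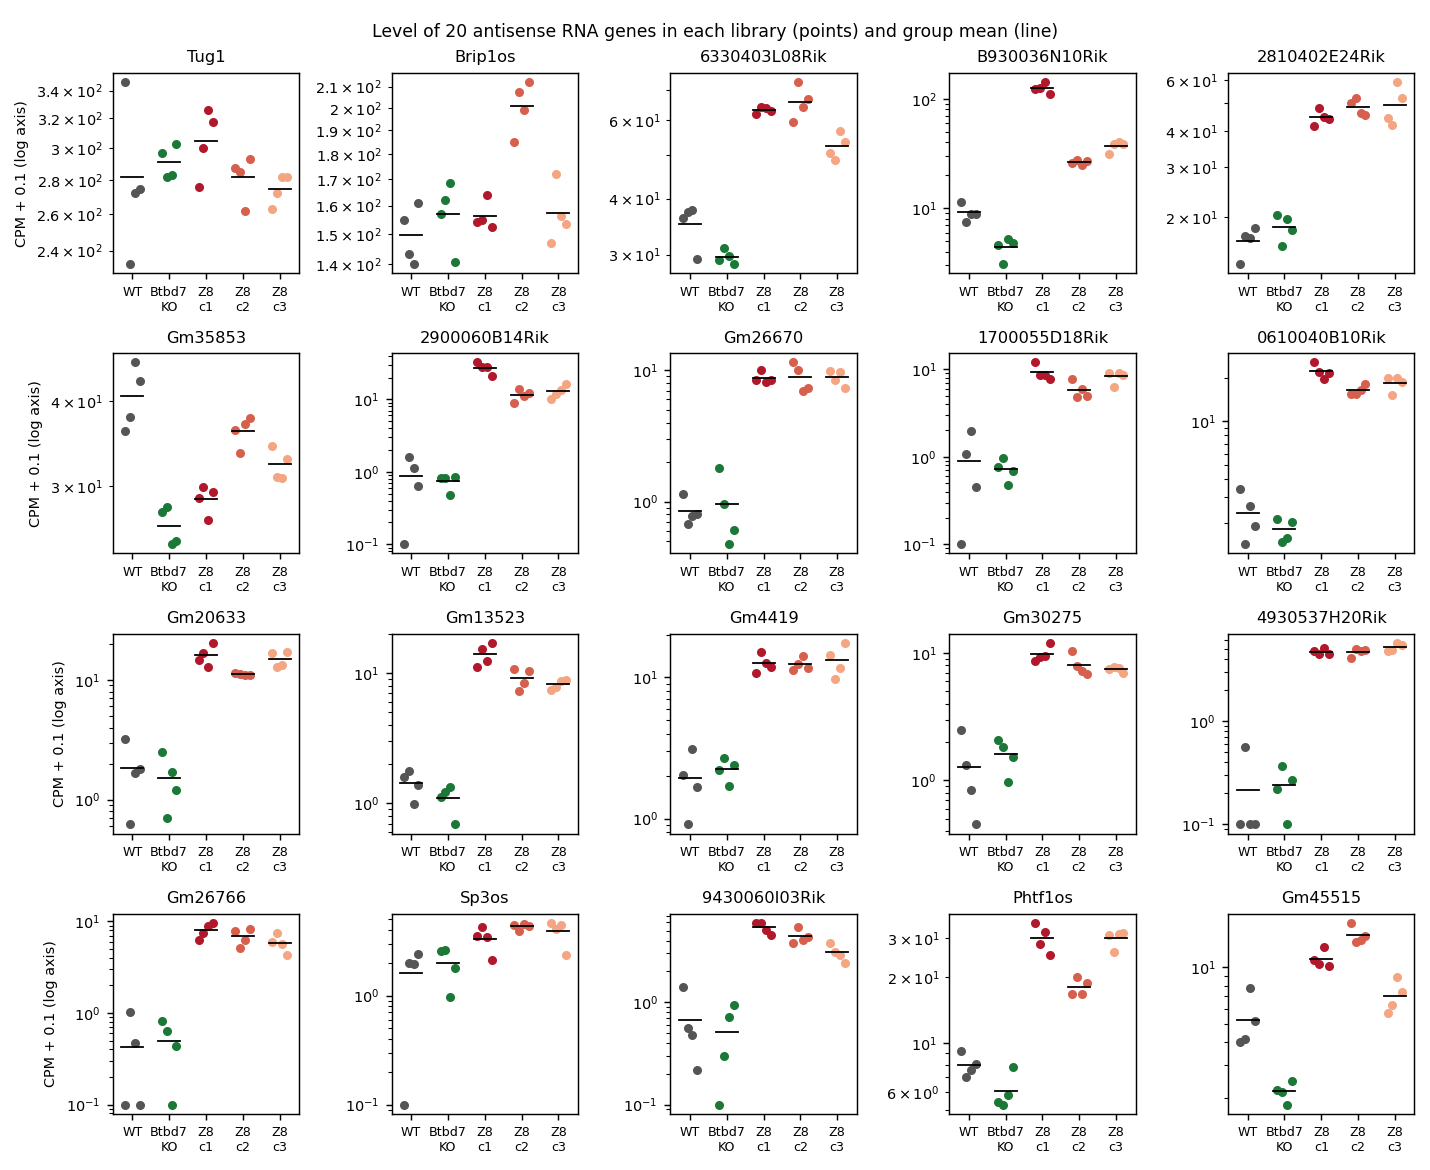
CPM (plus 0.1, log axis, separate range for each gene) of the 20 antisense RNA genes described in the text in each of the 20 libraries, with points for libraries and lines for the mean of the 4 libraries of a group: wild type (WT), Btbd7 KO and Zcchc8 (Z8) KO clones c1, c2 and c3. 2900060B14Rik goes from 0 to 1.5 CPM in wild type to 8.91 to 32.2 CPM in the clones, whereas the groups of Tug1 overlap.

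Gm35853 and Gm4610 were the 2 members that fell. Gm35853 (ENSMUSG00000116114.1, chromosome 15, 101322888 to 101405834, plus strand) encloses the keratin gene Krt80. It was at 36.0, 37.8, 45.5 and 42.8 CPM in wild type, at 27.4, 27.9, 24.6 and 24.8 in the Btbd7 KO, at 28.8, 29.8, 26.6 and 29.3 in clone 1, at 36.2, 33.5, 36.9 and 37.7 in clone 2 and at 34.3, 30.9, 30.7 and 32.8 in clone 3. Clone 2 overlapped wild type, and the Btbd7 KO was the lowest group by mean. Gm35853 fell by 0.33 in the clones (log2, SE 0.07, edgeR adjusted p = 0.000559) and by 0.63 in the Btbd7 KO (edgeR adjusted p = 1.53e-05), so that against the Btbd7 KO the clones were higher by 0.29 (edgeR adjusted p = 0.00242). Krt80 fell by 0.64 in the clones (edgeR adjusted p = 4e-10) and by 0.36 in the Btbd7 KO (edgeR adjusted p = 0.000249).

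Gm4610 (ENSMUSG00000104554.1, chromosome 3, 122377097 to 122391811, minus strand), named after its values were seen, lies inside Bcar3, a signalling adaptor gene, without touching its exons. It was at 5.72, 3.12, 2.62 and 2.40 CPM in wild type, at 3.19, 3.32, 4.47 and 3.38 in the Btbd7 KO, at 1.56, 0.948, 1.16 and 0.509 in clone 1, at 1.78, 2.35, 1.43 and 1.87 in clone 2 and at 0.285, 0.126, 0.892 and 0.545 in clone 3. All clone libraries were below all control libraries. The fitted log2 change came to -1.84 (SE 0.30, edgeR adjusted p = 3.46e-05), with -0.90 in clone 2 (edgeR adjusted p = 0.0709), and Bcar3 fell by 0.31 (edgeR adjusted p = 0.000978).

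The remaining 49 members did not pass in either direction. The estimate of 37 of them was within 0.5 of 0, and the largest was 1.00. A typical member had a standard error of 0.30, against 0.12 over all genes tested, so smaller changes in the less abundant members were not detectable at this depth.

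The increases were found in each of the 3 clones. Clone 1 had 134 members higher and 2 lower, with a median log2 fold change of 1.52, beside 16.7% of all genes higher. Clone 2 had 127 and 0 with a median of 1.41 beside 16.1%, and clone 3 had 124 and 2 with a median of 1.43 beside 14.0% (edgeR, each against wild type). The 115 members called higher for the mean and in each clone compare with 7.64% of all genes tested, and none was called lower in each clone, although 5.82% of all genes were. Clones 1, 2 and 3 share the wild-type libraries, so their values are not independent. The choice of members used the clone libraries, so these counts and medians describe the chosen genes and do not support a change. Of the 101 members with at least 20 counts in the Btbd7 KO, 47 were higher for the mean and in each clone. These 101 had also passed the mean over all libraries, so the clones still entered their choice. Without that second condition 107 antisense genes reached 20 counts in the Btbd7 KO. The medians of those 101 were 0.87, 0.84 and 0.88 in clones 1, 2 and 3. A joint test that the clones are equal called 24 members (edgeR, 2 degrees of freedom) beside 28.5% of all genes. Without wild-type replicate 1 it called 39, beside 38.6% of all genes.

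The clones differed most at B930036N10Rik (ENSMUSG00000091993.2, chromosome 1, 171500568 to 171504111, minus strand), a single-exon gene head-to-head with Alyref2, which encodes an mRNA export adaptor. It was at 11.4, 7.46, 8.82 and 8.68 CPM in wild type, at 4.52, 2.99, 5.09 and 4.73 in the Btbd7 KO, at 122, 126, 142 and 112 in clone 1, at 25.6, 27.4, 24.8 and 27.1 in clone 2 and at 31.5, 38.7, 40.4 and 38.9 in clone 3. No group of this gene overlapped another, from the Btbd7 KO at the bottom to clone 1 at the top. The log2 fold changes were 3.79, 1.53 and 2.04 for clones 1, 2 and 3 and -1.09 in the Btbd7 KO (edgeR, joint adjusted p = 1.14e-13 for the clones and 1.33e-05 for the Btbd7 KO). Alyref2 was at 1.6 CPM in wild type and 1.98 in the clones (edgeR adjusted p = 0.653).

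Phtf1os (ENSMUSG00000089998.2, chromosome 3, 103964536 to 103968581, minus strand) is tail-to-tail with Rsbn1. Its level was 9.10, 6.94, 7.48 and 7.98 CPM in wild type, 5.30, 5.18, 5.71 and 7.69 in the Btbd7 KO, 35, 28.2, 31.8 and 25 in clone 1, 16.6, 19.8, 16.5 and 18.7 in clone 2 and 31.0, 25.9, 31.2 and 31.4 in clone 3. Clone 2 lay between the controls and the other clones without overlap. It rose by 1.93, 1.19 and 1.92 (log2) in clones 1, 2 and 3 (edgeR, joint adjusted p = 8.83e-05).

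Gm45515 (ENSMUSG00000109799.1, chromosome 7, 110277782 to 110281527, minus strand) lies inside Swap70, an actin-binding protein gene. It was at 3.90, 4.05, 7.63 and 5.04 CPM in wild type, at 2.11, 2.06, 1.74 and 2.37 in the Btbd7 KO, at 10.8, 10.3, 12.7 and 10.1 in clone 1, at 17.3, 13.6, 13.9 and 14.6 in clone 2 and at 5.62, 6.15, 8.80 and 7.29 in clone 3. Clone 3 overlapped wild type, clones 1 and 2 lay above it, and the Btbd7 KO below. The log2 fold changes were 1.10, 1.53 and 0.43 in clones 1, 2 and 3 and -1.29 in the Btbd7 KO (edgeR adjusted p = 0.000132, 1.38e-06, 0.111 and 0.000175).

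In the Btbd7 KO 7 members were higher and 12 lower than wild type (edgeR, adjusted p under 0.05), where 7.73% of all genes were higher and 8.0% lower. The median log2 fold change of the members was -0.15. Of the members higher in the clones, 8 were lower in the Btbd7 KO and 5 were higher, and the clones and the Btbd7 KO share the wild-type libraries in these counts. Without wild-type replicate 2 the lower members numbered 21, beside 10.2% of all genes. Set against the Btbd7 KO in place of wild type, 144 members were higher in the clones and 1 lower, beside 18.8% and 22.2% of all genes.

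The size of the change varied with the position against the sense gene, given here as a description of the chosen genes. Of 74 head-to-head members 59 were called higher, with a median log2 fold change of 1.65. Of the 43 inside a sense gene 29 were higher (median 1.26), of the 14 that enclose one 9 (median 1.16), and of the 40 tail-to-tail 26 (median 0.93). The 16 without a sense gene had a median of 2.24, with 13 called higher. Median control levels differed as well, at 1.53 CPM in the Btbd7 KO for head-to-head and 3.20 for tail-to-tail members, and their part in the difference was not tested. Among members with at least 20 counts in the Btbd7 KO, 25 of 38 head-to-head and 15 of 27 tail-to-tail members were higher, with medians of 1.12 and 0.83. In the same set 13 of the 24 inside a sense gene (median 0.70) and 3 of the 7 that enclose one (median 0.30) were higher, so that these classes then had lower medians than the tail-to-tail members. The 5 without a sense gene had a median of 1.45, with 3 higher. All members of this set had also passed the mean over all libraries, clones included.

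The distance between the starts and the exon structure split the members too. The 54 that start within 1000 bases of the sense start had a median of 1.74 with 44 called higher, and the 117 that start farther away had a median of 1.18 with 79 higher. Single-exon genes were called higher in 41 of 46 cases (median 2.07). Genes with several exons in every transcript were higher in 73 of 111 (median 1.38), and the 30 with both kinds of transcript in 22 (median 1.20). With at least 20 counts in the Btbd7 KO these were 15 of 20 single-exon genes (median 1.14), 31 of 61 spliced ones (median 0.67) and 13 of 20 with both kinds of transcript (median 0.87), whose median then lay above that of the spliced ones. None of the differences between these classes was tested. The members with at least 20 counts in the Btbd7 KO had also passed the mean over all libraries, clones included.

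**Figure D3:**
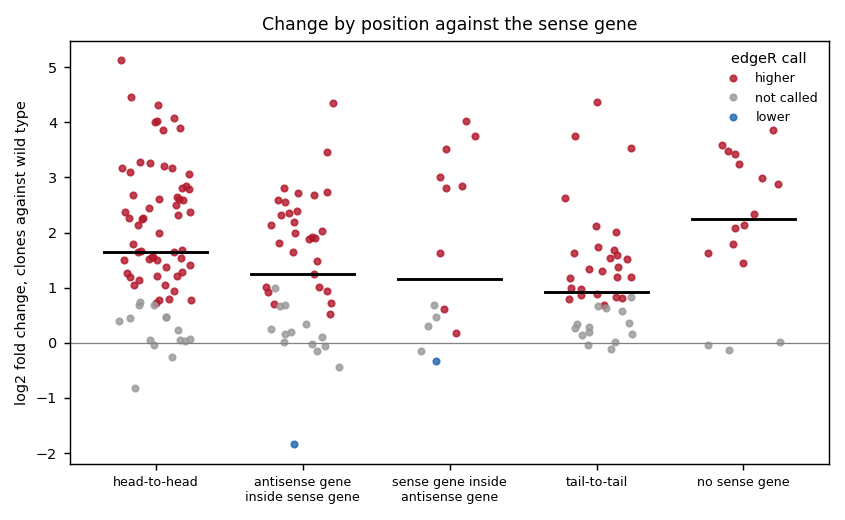
Log2 fold change (mean of the 3 Zcchc8 KO clones against wild type, edgeR) of the 187 antisense RNA genes by position against the sense gene, with points coloured by call and the class median as a bar. The median bar is at 1.65 for head-to-head genes and at 0.93 for tail-to-tail genes, and the points of all classes overlap.

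The sense genes had a median change near 0. Of the 146 sense genes tested, 18 rose and 36 fell, with a median log2 fold change of -0.02, beside the 16.2% higher and 19.9% lower of all genes. Among the 136 antisense genes that rose, the sense gene rose at 14, fell at 21, did not pass at 73 and was not tested or not there at 28. At both antisense genes that fell the sense gene fell as well.

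The ratio of antisense to sense counts within a library does not move with the library's scaling. Over the 146 testable pairs its median (log2 ± SD over 4 libraries) was -4.57 ± 0.09 for wild type and -4.52 ± 0.13 for the Btbd7 KO. Clone 1 had -2.77 ± 0.07, clone 2 had -2.93 ± 0.05 and clone 3 had -2.96 ± 0.12 (n = 4), and the clone libraries, at -3.09 to -2.68, did not overlap the control libraries, at -4.67 to -4.35. The ratio was higher in the clones at 106 pairs and lower at 5 (limma over 1925 overlapping opposite-strand pairs, adjusted p under 0.05), where 38.3% of all these pairs were higher and 12% lower. Its median change was 1.55, and 0.03 in the Btbd7 KO, where 7 member pairs were called beside 4.57% of all pairs. The 1925 pairs include the member pairs. An antisense gene was set over its partner, and any other kind over a protein-coding gene. Between genes of equal rank the one with the lower start coordinate came first, so higher and lower are arbitrary there. In either direction 968 of the 1925 were called in the clones. Of the 106 member pairs with a higher ratio, the sense gene was not called at 66, fell at 30 and rose at 10. In the 20 pairs without overlapping exons 12 ratios were higher and 2 lower. Per kilobase of exon, the median member stood at 12.5% of its sense gene's level in wild type and at 44.6% in the clones. It was above its sense gene at 27 of 151 pairs in wild type and at 48 in the clones. Because the choice of members used the clone libraries, these ratios describe the chosen genes and do not support a change. Of 80 pairs whose member had at least 20 counts in the Btbd7 KO, 50 ratios were higher and 5 lower, with a median change of 0.88. Members of that set stood at a median of 21.6% of the sense level in wild type and 49.3% in the clones. They had also passed the mean over all libraries, clones included.

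**Figure D4:**
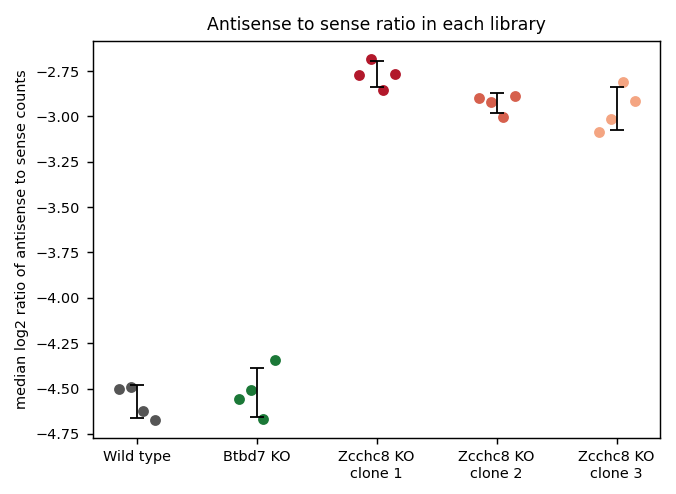
Median over 146 pairs of the log2 ratio of antisense to sense counts (vertical axis) in each library, with points for libraries and black bars for the group mean ± SD (n = 4). The control libraries lie between -4.67 and -4.35 and the clone libraries between -3.09 and -2.68. The choice of members used the clone libraries.

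At 4 pairs the members were named because the ratio changed most while the sense gene went the other way. 4930537H20Rik (ENSMUSG00000105350.1, chromosome 3, 90292301 to 90293983, minus strand), a single-exon gene, is head-to-head with Gatad2b, a subunit gene of the NuRD chromatin complex. It was at 0, 0.463, 0 and 0 CPM in wild type, at 0.121, 0.265, 0 and 0.169 in the Btbd7 KO, at 4.69, 4.33, 4.92 and 4.33 in clone 1, at 3.97, 4.84, 4.62 and 4.70 in clone 2 and at 4.63, 4.77, 5.61 and 5.32 in clone 3. Only replicate 2 of wild type held any count, and the clones lay close together far above it. The fitted change of 5.13 (log2, SE 0.53, edgeR adjusted p = 4.45e-08) is therefore imprecise, and without that library the fit has only zeros in wild type, where its value of 8.81 is no bound. Gatad2b fell by 0.32 (edgeR adjusted p = 0.000117), and the ratio rose by 6.51 (limma adjusted p = 1.39e-09). In the Btbd7 KO Gatad2b fell by 0.45 (edgeR adjusted p = 9.83e-05), so its fall is not particular to the clones. With so few counts in wild type, the size of the ratio change rests on the added 0.5 and is imprecise too.

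Gm26766 (ENSMUSG00000097259.2, chromosome 15, 37007523 to 37044100, plus strand) starts 250 bases from Zfp706, a zinc finger gene, in the opposite direction. It had 0, 0.926, 0.374 and 0 CPM in wild type, 0.723, 0.531, 0 and 0.338 in the Btbd7 KO, 6.12, 7.31, 8.83 and 9.55 in clone 1, 7.68, 5.06, 6.16 and 8.15 in clone 2 and 5.91, 7.28, 5.61 and 4.22 in clone 3. Clone and control libraries did not overlap. It rose by 4.31 (log2, SE 0.51, edgeR adjusted p = 3.21e-07), Zfp706 fell by 0.27 (edgeR adjusted p = 0.000495), and the ratio rose by 5.86 (limma adjusted p = 2.33e-07). Zfp706 was at -0.31, -0.05 and -0.47 in clones 1, 2 and 3 (edgeR adjusted p = 0.00167, 0.636 and 2.01e-05). Here too the added 0.5 weighs on the size of the ratio change. The rise of Gm26766 was 5.80 without wild-type replicate 2.

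9430060I03Rik, which encloses the calpain protease gene Capn10, was at 0.117 to 1.30 CPM in wild type and 2.32 to 5.86 in the clones. It rose by 2.84 (log2, SE 0.47, edgeR adjusted p = 4.16e-05) while Capn10 fell by 0.40 (edgeR adjusted p = 0.0149). Capn10 passed only in clone 1, with -0.60, -0.38 and -0.23 in clones 1, 2 and 3 (edgeR adjusted p = 0.0064, 0.0688 and 0.301). Without wild-type replicate 1 the rise of 9430060I03Rik was 3.66. Sp3os was at 0, 1.91, 1.87 and 2.29 CPM in wild type and 2.04 to 4.56 in the clones, which overlapped. It rose by 1.28 (log2, SE 0.43, edgeR adjusted p = 0.0208), and its partner Gm11084, at 1.23 CPM in wild type, fell by 1.58 (edgeR adjusted p = 0.042). Gm11084 averaged 0.596, 0.295 and 0.325 CPM in clones 1, 2 and 3, and passed in none of them alone (edgeR adjusted p = 0.352, 0.0686 and 0.107). In the Btbd7 KO it was as low, at 0.331 CPM (log2 fold change -1.96, edgeR adjusted p = 0.113), so its fall is not particular to the clones.

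The ratio fell at 5 pairs, all named after their values were seen: Grin1os with Grin1, Fbxl12os with Gm48069, Gm9856 with Tmem42, 9530034E10Rik with St3gal3, and Gm4610 with Bcar3. Grin1os, inside the NMDA receptor subunit gene Grin1, rose by 0.53 (log2, edgeR adjusted p = 0.00677). Its sense gene rose by 4.90 (edgeR adjusted p = 7.02e-07), from 0.259 CPM in wild type to 7.50 in the clones, so that the ratio fell by 5.34 (limma adjusted p = 1.23e-05). In the first 4 pairs the sense gene rose. Of their antisense genes Grin1os and Fbxl12os rose too, whereas Gm9856 (0.68, edgeR adjusted p = 0.0798) and 9530034E10Rik (0.19, edgeR adjusted p = 0.607) did not pass. In the last pair both genes fell.

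**Figure D5:**
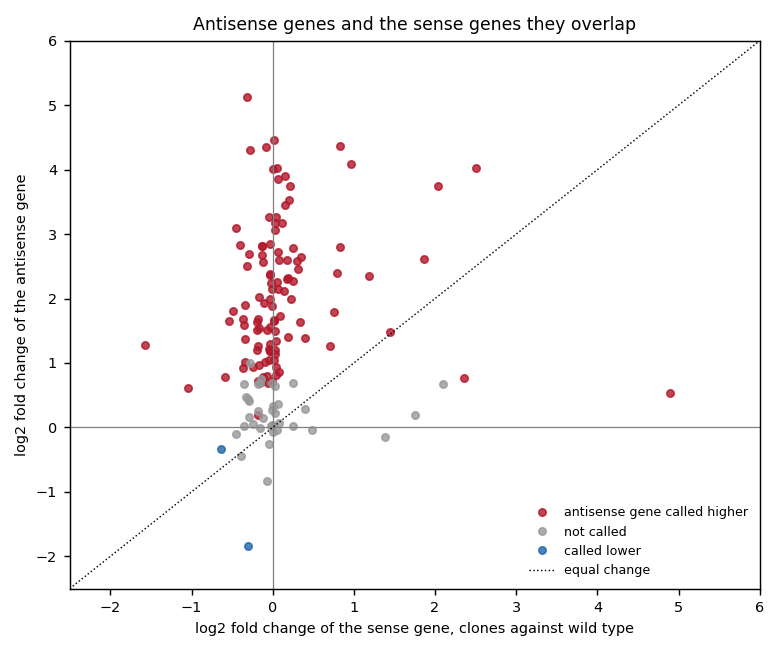
Log2 fold change (Zcchc8 KO clones against wild type, edgeR) of the antisense RNA gene against that of its sense gene for the 146 testable pairs, coloured by the call of the antisense gene, with a dotted line of equal change. Most points stand near 0 on the horizontal axis and above 0 on the vertical axis, and Grin1os lies far to the right, where its sense gene rose by 4.90.

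PROMPT regions, counted by the authors at the promoter of each gene and named by it, gave another measure of these loci in 19 libraries, without wild-type replicate 1. At the sense genes of members 99 of 135 tested regions rose and none fell, with a median log2 fold change of 1.26 (edgeR, adjusted p under 0.05), where 39.2% of all 17617 regions rose and 3.85% fell. At the sense genes of head-to-head members 64 of 74 rose, with a median of 1.73, against 12 of 26 where the member lies inside and 14 of 24 in tail-to-tail pairs. Such a region and the antisense gene can hold the same reads, and how far a region reaches is not given in the sources used here. Examples are the regions of Zdhhc4 at 3.20 (log2, edgeR adjusted p = 1.18e-23), Gatad2b at 3.69 (edgeR adjusted p = 1.28e-15) and Zfp706 at 3.98 (edgeR adjusted p = 5.57e-14), beside 3.07, 5.13 and 4.31 for 0610040B10Rik, 4930537H20Rik and Gm26766. The region of Morc2a, opposite Tug1, was at 0.17 (edgeR adjusted p = 0.0695). Because the choice of members used the clone libraries, these counts of regions describe the chosen loci and do not support a change. Where the member had at least 20 counts in the Btbd7 KO, 49 of 74 regions rose, with a median of 0.89. There 29 of 38 rose in head-to-head pairs (median 0.98), 4 of 13 where the member lies inside and 11 of 18 in tail-to-tail pairs.

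Of the regions named by the antisense genes themselves, 175 were tested, 46 rose and 13 fell, with a median of 0.14. Over all 17617 regions 39.2% rose and 3.85% fell, with a median of 0.43. The differences of the members' own regions from all regions and from those of the sense genes were not tested. Scaled within the table of regions, which centres the typical region on no change, 26 rose and 57 fell, beside 30.1% and 21.9% of all regions under that scaling. In head-to-head pairs 13 of 73 such regions rose, and there the upstream side of the antisense gene lies within the sense gene.

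A group of 21 members carry names that end in os, for opposite strand, and were grouped by name after their values were seen. Of these 15 (71.4%) rose and none fell, with estimates from -0.44 to 3.43 and a median of 1.28. Of the 166 members with other names 121 (72.9%) rose and 2 fell. Over all genes tested 16.2% rose and 19.9% fell. The sense genes of the 21 rose at 5, fell at 6 and did not pass at 7. Among the 10 head-to-head ones of the 21, 9 rose, beside 59 of all 74 head-to-head members. The choice of members used the clone libraries, so these counts describe the chosen genes.

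Junos, head-to-head with the AP-1 transcription factor gene Jun, was at 1.30, 2.08, 0.822 and 0.293 CPM in wild type, at 0.844, 0.796, 0.868 and 0.760 in the Btbd7 KO, at 5.60, 3.79, 3.04 and 5.48 in clone 1, at 3.43, 2.99, 3.65 and 6.84 in clone 2 and at 2.71, 2.51, 3.70 and 3.88 in clone 3. All clone libraries were above all control libraries. Junos rose by 1.79 (log2, SE 0.36, edgeR adjusted p = 0.000297) and Jun by 0.76 (edgeR adjusted p = 5.34e-08), and their ratio rose by 1.28 (limma adjusted p = 0.00811).

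H3f3aos, opposite the start of the histone H3.3 gene H3f3a, was at 1.37, 3.01, 3.29 and 4.46 CPM in wild type, at 1.87, 4.25, 2.98 and 2.28 in the Btbd7 KO, at 15.4, 11.8, 13.8 and 15.4 in clone 1, at 14.1, 15.7, 12.5 and 12.4 in clone 2 and at 19.9, 16.1, 16.4 and 19.6 in clone 3. Clones and controls were apart. H3f3aos rose by 2.31 (log2, SE 0.22, edgeR adjusted p = 7.34e-09) and H3f3a by 0.19 (edgeR adjusted p = 0.0471).

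Bloc1s6os, which overlaps no sense gene, reached 3.15 to 9.41 CPM in the clones from 0 to 1.20 in wild type, up by 3.43 on the log2 scale (SE 0.45, edgeR adjusted p = 1.71e-06). Egfros, inside the epidermal growth factor receptor gene Egfr, was at 3.64, 1.5, 1.5 and 3.05 CPM in wild type and at 1.02 to 3.89 in the clones. It did not pass the test (log2 fold change -0.44, edgeR adjusted p = 0.329), and Egfr fell by 0.39 (edgeR adjusted p = 2.12e-05). Rab10os (0.16), Rab26os (-0.15), Zfp335os (0.04), Tmem147os (0.47) and Runx2os2 (1.00) did not pass either (edgeR, log2 fold changes in parentheses).

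The first 300 bases of the longest transcript held a median of 15 CG dinucleotides, against 6 over 46259 annotated genes and 13 over protein-coding genes, and 20.5 in head-to-head members. In that window, searched on the transcript strand only, AATAAA stood in 9 of 187 members (4.81%) and in 7.75% of all genes, and GGTAAG, which resembles a 5' splice site, in 9 members (4.81%) and in 3.36% of all genes. Of the 136 members that rose, 9 held AATAAA there and 4 held GGTAAG. Of the 49 that were not called, 0 and 5 did. These letter matches are descriptions of the annotated transcripts.

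Genes of nuclear RNA decay were listed for comparison: 22 genes of the NEXT, PAXT, cap-binding and exosome complexes, of which 21 were tested, 1 rose and 9 fell in the clones, with a median log2 fold change of -0.16 (edgeR), beside 16.2% of all genes higher and 19.9% lower. Srrt, which encodes the cap-linked adaptor ARS2, rose by 0.49 (edgeR adjusted p = 7.8e-09). Mtrex, the helicase that NEXT brings to the exosome, fell by 0.27 (edgeR adjusted p = 2.89e-05), and Dis3, a catalytic exosome subunit, fell by 0.31 (edgeR adjusted p = 3.64e-05).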

How the data were processed

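Total RNA of SIMS cells was sequenced in 20 libraries, grouped by their titles. The authors deposited raw read counts per gene and library, and per PROMPT region for 19 libraries. FastQC and STAR 2.7.3a are named in the submitters' processing notes. Their settings, the counter, the strand setting and the genome build are not given in the sources used here. Biotypes and positions came from GENCODE M21 (GRCm38), where 54573 of 55471 identifiers matched with their version and 55230 without. Promoter windows are RefSeq's, on GRCm38.p6, and were found for 85 members. Columns without a mapped library numbered 0.

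The test on counts was that of edgeR 4.0.16, run in R 4.3.3 (TMM, filterByExpr by group, glmQLFit and glmQLFTest) in 1 fit over all 20 libraries. P-values were adjusted by Benjamini-Hochberg over all 15297 genes tested, and a call is an adjusted p under 0.05. All 187 members passed the filter. CPM values use the TMM-scaled totals. SEs were derived from the quasi-likelihood tests. Ratios used limma 3.58.1 on log2((antisense + 0.5)/(sense + 0.5)). PROMPT regions used the gene table's library sizes and TMM factors. The scripts were tested on simulated data. Within each group the libraries were not copies of one another, with chi-square values of 2.89 to 78.6 per degree of freedom.

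Named were, with their sense genes, the 6 members with the highest mean CPM, the 8 with the largest increase and up to 4 with the lowest value among those called with a mean of at least 50 counts (the 8 also in each clone), the 4 pairs with the largest ratio change and opposite calls, and the 3 with the smallest p in each of the joint and the Btbd7 KO tests. Names outside that rule are said to be so. The members, lists and tests were chosen with earlier results of these data known. The search of the last 50 bases and the CG counts were added after seeing the data. Alternatives were DESeq2 1.42.0, other filters, scalings, depths, controls, member rules and left-out libraries. Reads carry no molecular identifiers in the sources used here, so counting limits cover counting error only. Counts per library set the precision of each value.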

Additional observations from a re-analysis of the deposited data

Results flagged for a closer look

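In 5 of 100 groups of 4 libraries tested, 1 library lay far from the other 3 relative to the range of its group, and chance flags about 1 in 20. These were 1700055D18Rik in clone 3 replicate 2 (6.15 CPM, others 8.59 to 9.05), Phtf1os in the same library (25.9 CPM, others 31.0 to 31.4), Gm26670 in clone 1 replicate 2 (9.88 CPM, others 8.11 to 8.41), 2900060B14Rik in Btbd7 KO replicate 3 (0.372 CPM, others 0.723 to 0.760) and 4930537H20Rik in wild-type replicate 2 (0.463 CPM, others 0).

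The 3 Zcchc8 KO clones differed from each other at 8 named members (edgeR joint test, adjusted p in each case). The values were 1.14e-13 for B930036N10Rik, 6.85e-05 for Brip1os, 8.83e-05 for Phtf1os, 0.000408 for Gm45515, 0.00102 for 2900060B14Rik, 0.00671 for 6330403L08Rik, 0.00906 for Gm13523 and 0.0205 for Gm35853. By group mean, clone 1 was the highest of the clones at B930036N10Rik, 2900060B14Rik and Gm13523, and clone 2 at Brip1os, Gm45515, Gm35853 and 6330403L08Rik. At Phtf1os clones 1 and 3 were nearly level and clone 2 was the lowest.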

How the results depend on the processing

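The 136 members called higher ranged from 130 to 146 when each library was left out in turn, the latter without wild-type replicate 1, and the 2 called lower from 2 to 3. With cell lines as replicates 106 were higher and 0 lower, a setting added after seeing the data. Other counts of members called lower were 1 against the Btbd7 KO, 1 at an absolute log2 fold change over 1, and 0 in each clone. Clone 2 had 1 lower member in DESeq2. Leaving out each library gave 125 to 140 higher and 2 to 3 lower in clone 1, 119 to 133 and 0 to 2 in clone 2, 117 to 135 and 2 to 2 in clone 3, and 3 to 9 and 8 to 21 in the Btbd7 KO. It gave 19 to 39 members called in the joint test, 101 to 109 pairs with a higher ratio and 3 to 6 with a lower one, and 40 to 49 higher and 8 to 14 lower regions named by members. The joint count of 39 came without wild-type replicate 1, also with the gene table that lacks it. Thinned to the shallowest library, 2 members were higher in the Btbd7 KO. Scaling within the PROMPT table gave 26 higher and 57 lower regions. A mean of at least 10 counts gave 320 members with 214 higher, one of at least 50 gave 79 with 60 higher, and one of at least 20 in wild type gave 137 with 77 higher. Without members whose exons overlap sense exons, 30 of 43 were higher. Replicate numbers did not pair the libraries (correlations of deviations -0.0871 to 0.152 over 40 pairs, and 1 of 20 libraries correlated best with its own number). With the number as a replicate block 136 members were higher, 105 pairs had a higher ratio and 46 regions were higher.

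Gm35853 turned to 0.29 against the Btbd7 KO. Tug1 turned to -0.024 with cell lines as replicates, -0.0224 against the Btbd7 KO and -0.0540 without wild-type replicate 2, and passed at 0.161 without wild-type replicate 1 (edgeR adjusted p = 0.0103). Brip1os, Gm35853, Gm45515 and Sp3os did not pass with cell lines as replicates, nor did Brip1os and Sp3os against the Btbd7 KO (edgeR). Against the Btbd7 KO, B930036N10Rik was at 3.54 and Gm45515 at 2.31, and with cell lines as replicates B930036N10Rik was at 3.21. The cause of these changes was not tested. Counting error adds to the spread of the members with few counts. Of the 187, 42 had no count in wild-type replicate 1, and 7 had none in at least 1 of the other wild-type libraries.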
